A study of Mus musculus with 34 samples.

Results

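Transcripts of 9 genes of blood coagulation and fibrinolysis were followed in whole kidneys of 34 C57BL6 mice at postnatal day 28: *F3*, *Thbd*, *Fga*, *Fgb*, *Fgg*, *Plat*, *Plau*, *Plaur* and *Kng2*. They were 9 of 23509 genes in the deposited tables, and all 9 were among the 15644 genes that passed the filter on low counts. The genes were chosen by function and with earlier results of these data known, *F3* and *Kng2* because they stood high among the differences between PBS-treated *Pkd2*-KO kidneys and untreated kidneys. In that comparison *F3* ranked 3 by p-value among 8147 genes with higher levels and *Kng2* ranked 6 among 7497 genes with lower levels, and the values of all 9 genes there are given as a description with no test.

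The PBS group (n = 11) and the RGLS4326 group (n = 11) were *Pkd2*-KO mice on the C57BL6 background, whose genotype the labels spell "Pdk2KO", and the UNT group (n = 12) held untreated wildtype mice of the same age. In the *Pkd2*-KO mice a Cre recombinase driven by the *Pkhd1* promoter, which is active in kidney tubules, removed floxed *Pkd2*, so other cells of the kidney kept the gene. RGLS4326, an oligonucleotide complementary to the seed of miR-17, was given subcutaneously at 20 mg per kg on postnatal days 10, 11, 12 and 19, and the PBS group received vehicle on the same days. UNT mice were not injected, so genotype and injection cannot be told apart in comparisons with UNT. Each library came from 1 mouse, and *p*-values measure the spread between these mice.

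Coagulation starts when tissue factor, the product of *F3*, meets circulating factor VII, and it ends when thrombin cuts fibrinogen, a protein built from 3 kinds of chain encoded by *Fga*, *Fgb* and *Fgg*, into fibrin. Thrombomodulin, encoded by *Thbd*, binds thrombin on endothelium and turns it toward activation of protein C, which slows the cascade. Fibrin is dissolved by plasmin, which the tissue activator (*Plat*) and the urokinase activator (*Plau*) release from plasminogen, with the urokinase receptor (*Plaur*) holding urokinase at the cell surface. Kininogen is the parent of kinins and a cofactor of the contact pathway, and the mouse has 2 genes for it, *Kng1* and *Kng2*. Fibrinogen is made mainly by hepatocytes as an acute phase protein, while urokinase and kininogen are long known as products of the kidney tubule.

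Each library held between 17603122 and 54981992 reads assigned to genes. The targeted gene, *Pkd2*, had from 220 to 338 CPM (counts relative to library size, scaled by TMM factors) in UNT, from 98.03 to 215 CPM in PBS and from 170.0 to 237 CPM in RGLS4326 kidneys, so the PBS mice all lay below the UNT mice and the RGLS4326 mice overlapped with them. Markers of kidney tubules and podocytes were present in every group, except that *Pvalb* of the distal tubule was at 0 in at least 1 library of both *Pkd2*-KO groups. The library numbers in the names of the tables restarted 2 times, which divides the mice into 3 sets that each held 3 or 4 mice per group. Reads in no gene took 12.9 to 14.9% in UNT, 6.08 to 11.0% in PBS and 5.82 to 14.6% in RGLS4326 libraries.

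Because RGLS4326 pairs with the seed of miR-17, the longest 3′UTR of every gene in GENCODE M21 (GRCm38) was searched for the letters that pair with bases 2 to 8 of miR-17-5p (GCACTTT). Letters that pair with bases 2 to 7 and are followed by A (CACTTTA) also counted as a match. The mature sequence (RefSeq, GRCm38.p6, chr14:115043684-115043706, plus strand) is shown with bases 2 to 8 in capitals. Below it stands the only match found among the 9 genes, an 8-base match (GCACTTTA, in capitals) in the 3′UTR of *F3* at chr3:121734790-121734797, plus strand. It starts at base 551 of the 809 bases of that 3′UTR.
miR-17-5p: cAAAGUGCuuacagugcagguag
F3 site: cctacaatttaGCACTTTAactgacaatga
The 3′UTRs of the other 8 genes, of 167 (*Kng2*) to 2262 bases (*Fgb*), held no 7-base or 8-base match. A match of any of these kinds stood in 3011 of 14193 tested genes with a 3′UTR (21.2%), and 8-base matches alone were not counted. A match is a description of the sequence and not a measured site.

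The 3 fibrinogen genes lie side by side on chromosome 3 (GRCm38), *Fgg* at chr3:83007724-83015049 and *Fga* at chr3:83026076-83033627 on the plus strand and *Fgb* at chr3:83040141-83049863 on the minus strand. *F3* lies on the same chromosome at chr3:121723537-121735048, plus strand. The promoters of the 3 fibrinogen genes, which moved together, and of *F3* and *Plaur*, which are compared further on, are shown from 250 bases before to 50 bases after the RefSeq start of the gene (GRCm38.p6), 5′ to 3′ on the strand of the gene. RefSeq promoters were matched for 6 of the 9 genes. Capitals mark matches, on either strand, to 5 motifs: CTGGGAA (the core bound by STAT3 in interleukin-6 response elements), GTTAAT (part of the HNF1 site), TTGCNNCAA (C/EBP), TGAGTCA (AP-1) and GGGCGG (the GC box of Sp1).
Fgg, chr3:83007474-83007773: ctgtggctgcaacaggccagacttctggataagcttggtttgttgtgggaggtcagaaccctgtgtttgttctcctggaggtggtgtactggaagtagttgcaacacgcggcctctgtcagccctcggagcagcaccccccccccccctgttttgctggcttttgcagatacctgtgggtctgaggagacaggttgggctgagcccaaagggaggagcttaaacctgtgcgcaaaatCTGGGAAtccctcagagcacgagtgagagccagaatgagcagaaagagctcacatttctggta
Fga, chr3:83025903-83026202: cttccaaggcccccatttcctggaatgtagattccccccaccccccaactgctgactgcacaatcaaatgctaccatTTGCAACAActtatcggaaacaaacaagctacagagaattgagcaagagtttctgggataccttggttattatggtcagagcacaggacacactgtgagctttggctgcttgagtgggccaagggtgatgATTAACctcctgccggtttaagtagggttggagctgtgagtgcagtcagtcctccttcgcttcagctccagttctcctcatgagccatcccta
Fgb, chr3:83049814-83050113: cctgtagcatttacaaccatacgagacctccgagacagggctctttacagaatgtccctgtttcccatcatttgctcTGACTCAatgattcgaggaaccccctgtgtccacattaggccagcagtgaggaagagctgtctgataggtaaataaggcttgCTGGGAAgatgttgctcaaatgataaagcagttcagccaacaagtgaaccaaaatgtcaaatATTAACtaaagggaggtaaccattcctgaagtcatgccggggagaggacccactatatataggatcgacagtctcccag
F3, chr3:121723287-121723586: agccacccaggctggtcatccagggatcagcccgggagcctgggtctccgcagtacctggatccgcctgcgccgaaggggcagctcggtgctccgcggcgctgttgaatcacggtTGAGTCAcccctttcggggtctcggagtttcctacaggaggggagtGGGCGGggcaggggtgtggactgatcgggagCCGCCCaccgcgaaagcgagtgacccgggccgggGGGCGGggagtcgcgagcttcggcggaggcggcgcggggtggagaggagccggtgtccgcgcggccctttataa
Plaur, chr7:24462233-24462532: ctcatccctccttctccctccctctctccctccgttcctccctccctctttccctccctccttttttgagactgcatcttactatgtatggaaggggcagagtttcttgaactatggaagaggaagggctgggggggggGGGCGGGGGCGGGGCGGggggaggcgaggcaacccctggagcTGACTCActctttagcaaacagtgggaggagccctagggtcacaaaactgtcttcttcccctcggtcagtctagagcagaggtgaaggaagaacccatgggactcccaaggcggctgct
The interleukin-6 core was found 13 bases before the start in *Fgg* and 91 bases before it in *Fgb*, and in 11.14% of 32851 promoters of this length. These HNF1 letters were found in *Fga* and *Fgb* (7.1% of promoters) and the C/EBP letters in *Fga* (2.08%). *F3*, *Plaur* and *Fgb* each held 1 AP-1 motif (5.2% of promoters), and *F3* and *Plaur* each held 3 GC boxes (35.66% of promoters), 2 of which share a base in *Plaur*. The *Kng2* promoter held CTGGGAA 18 bases after the start and none of the other letters.

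**Figure D1:**
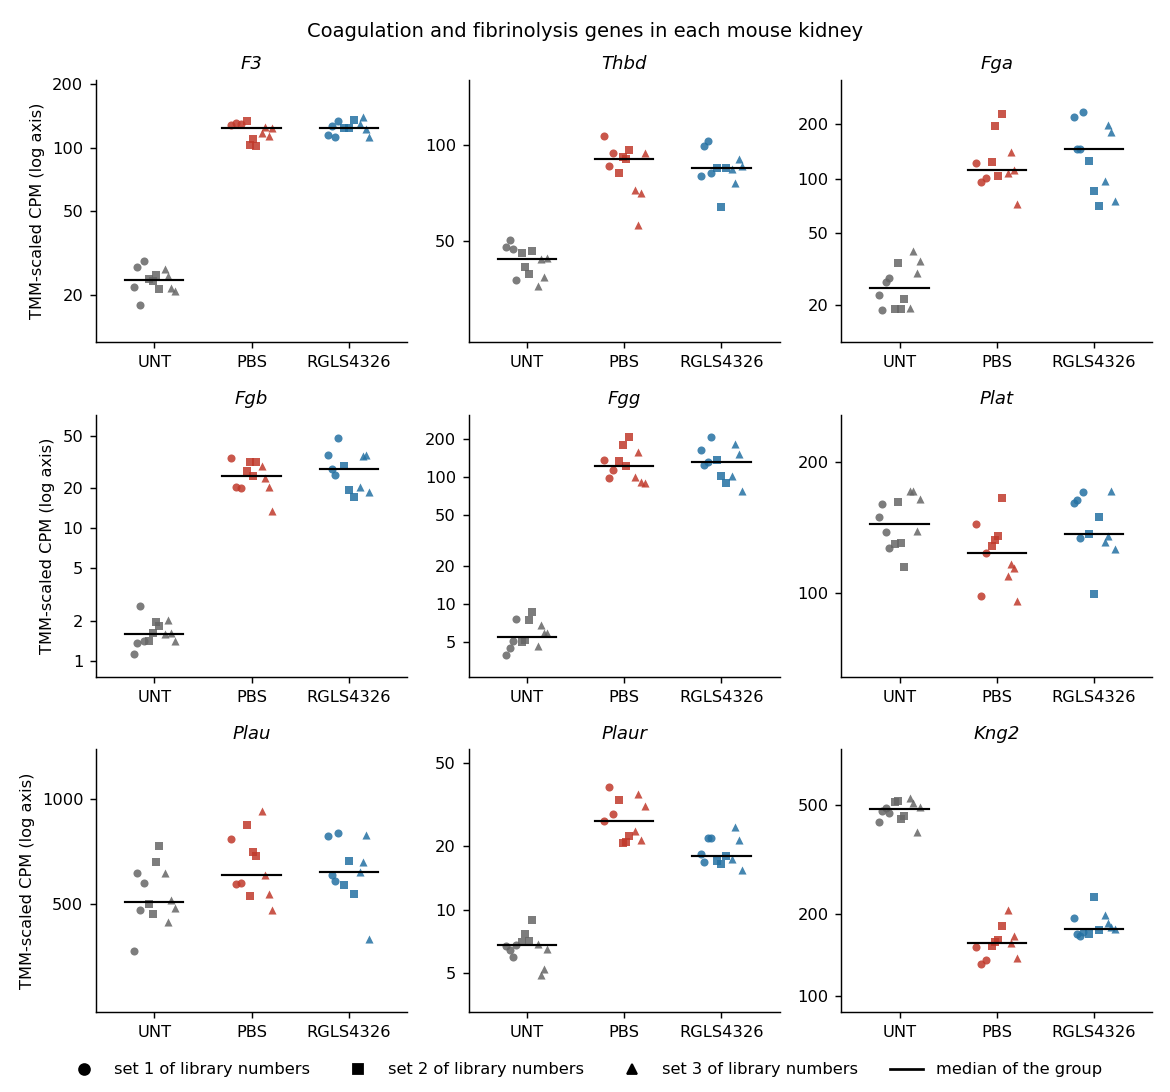
TMM-scaled CPM (log axis, a range of its own in each panel) of the 9 genes in each mouse, with UNT in grey, PBS in red and RGLS4326 in blue, the marker shape giving the set of library numbers and the bar the median. For *F3*, *Thbd*, the fibrinogen genes and *Plaur* every *Pkd2*-KO mouse lies above every UNT mouse, for *Kng2* every one lies below, and *Plat* and *Plau* overlap.

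Tissue factor transcript was about 5-fold higher in cystic kidneys, where it varied less between mice than most transcripts. *F3* had from 17.8 to 29.0 CPM (median 23.4) in UNT kidneys, from 102 to 134 CPM (median 124) in PBS kidneys and from 112 to 140.4 CPM (median 124.5) in RGLS4326 kidneys. No *Pkd2*-KO mouse came near the UNT range, and the PBS and RGLS4326 ranges lay over each other. PBS kidneys exceeded UNT kidneys by 2.35 on the log2 scale (SE 0.07), which is 5.10-fold, and RGLS4326 kidneys exceeded UNT kidneys by 2.41 (SE 0.07, edgeR quasi-likelihood test with Benjamini-Hochberg adjustment over all tested genes, adjusted p = 7.19e-26). RGLS4326 vs UNT reuses the 12 UNT mice of the comparison that chose the genes, so its p-values, here and for the other genes, are not independent of that choice. The comparison of RGLS4326 with PBS, which did not choose the genes but shares its PBS mice with the one that did, gave a log2 fold change of 0.06 for *F3*, with a 95% confidence interval from −0.07 to 0.19 (adjusted p = 0.459). The transcript with the miR-17 seed match therefore differed between treated and vehicle kidneys by no more than 1.14-fold at the upper end of that interval. The coefficient of variation of *F3* between mice was 9.46% in the PBS group and 7.38% in the RGLS4326 group, against medians of 16.4% and 15.2% over all tested genes, and only 16.0% and 8.54% of tested genes had a smaller one. In the UNT group it was 13.3%, close to the median of 13.9%, and 46.5% of tested genes had a smaller one. *F3* was chosen with its small p-value known, and a small spread between mice lowers that p-value. Its low variation is therefore not independent of the choice and is given as a description. The genes it was set beside were not matched in level.

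Thrombomodulin transcript was about 2-fold higher in both *Pkd2*-KO groups. *Thbd* (chr2:148404466-148408188, minus strand) had from 36.1 to 50.4 CPM in UNT, from 56.3 to 107 CPM in PBS and from 64.3 to 103.5 CPM in RGLS4326 kidneys, with medians of 44.1, 90.8 and 84.99 CPM. The lowest PBS mouse was close to the highest UNT mouse but above it. The log2 fold change was 0.98 (SE 0.08) for PBS vs UNT, 0.97 (SE 0.08, adjusted p = 4.1e-13) for RGLS4326 vs UNT and −0.01 (95% confidence interval −0.18 to 0.16, adjusted p = 0.941) for RGLS4326 vs PBS. Thrombomodulin is a protein of endothelium, and the summed level of 8 endothelial markers was from 628 to 759 CPM in UNT, from 462 to 651 CPM in PBS and from 585 to 722 CPM in RGLS4326 kidneys. Of the 8, 6 were lower in PBS than in UNT kidneys (39.0% of all tested genes were) and 2, *Pecam1* and *Cdh5*, were higher like *Thbd* (43.1%), with medians of 94.6 and 118 CPM and of 66.6 and 97.8 CPM in UNT and PBS kidneys. Between RGLS4326 and PBS, where *Thbd* hardly differed, 6 of the 8 markers were higher and 0 lower (15.3% and 18.5% of all tested genes). In whole kidneys, more cells of a type and more RNA per cell cannot be told apart.

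Of the 9 genes, the fibrinogen chains *Fgg* and *Fgb* showed the greatest relative differences, and the chain *Fga* one close to that of *F3*. *Fgg* had from 3.96 to 8.63 CPM (median 5.50) in UNT, from 89.1 to 206 CPM (median 122) in PBS and from 76.9 to 204 CPM (median 132) in RGLS4326 kidneys. *Fgb* had from 1.13 to 2.59 CPM (median 1.61) in UNT, from 13.6 to 33.9 CPM (median 25.0) in PBS and from 17.3 to 48.2 CPM (median 28.01) in RGLS4326 kidneys. *Fga*, the chain with the highest level in UNT kidneys, had from 18.7 to 40.1 CPM (median 24.9) there, from 72.6 to 228 CPM (median 112) in PBS and from 70.5 to 234 CPM (median 146) in RGLS4326 kidneys. None of the 3 had an overlap between UNT and either *Pkd2*-KO group, and all 3 had broad, overlapping PBS and RGLS4326 ranges. The log2 fold changes for PBS vs UNT were 4.46 (SE 0.18) for *Fgg*, 3.91 (SE 0.18) for *Fgb* and 2.28 (SE 0.20) for *Fga*, or 21.9-fold, 14.99-fold and 4.84-fold. For RGLS4326 vs UNT they were 4.49 (SE 0.18), 4.08 (SE 0.18) and 2.45 (SE 0.20), with adjusted p-values (edgeR) of 3.66e-22, 4.42e-21 and 3.41e-13. *Fgg* overlaps 115 bases of exon of Gm30097 on the opposite strand, and since the strand setting of the counting was not stated, reads of the 2 genes cannot be told apart there.

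The balance of the chains differed as well. Per kilobase of exon, the ratio of *Fgg* to *Fga* was from 0.216 to 0.573 in UNT kidneys, from 1.18 to 1.76 in PBS kidneys and from 1.07 to 1.83 in RGLS4326 kidneys. *Fga* thus had more reads per kilobase than *Fgg* in every UNT mouse and fewer in every *Pkd2*-KO mouse. The ratio of *Fgb* to *Fga* had a median of 0.0501 in UNT, 0.158 in PBS and 0.162 in RGLS4326 kidneys, so *Fgb* remained the least abundant chain per kilobase in all 3 groups. *Fgb* has a 3′UTR of 2262 bases in this annotation, against 270 for *Fga* and 362 for *Fgg*, and whether kidneys use its whole length was not tested.

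Between RGLS4326 and PBS no fibrinogen chain was called, with a log2 fold change of 0.17 for *Fga* (95% confidence interval −0.23 to 0.58, adjusted p = 0.509). The values were 0.18 for *Fgb* (−0.14 to 0.49, adjusted p = 0.378) and 0.03 for *Fgg* (−0.28 to 0.35, adjusted p = 0.885). The direction was not the same in all sets of library numbers. In mean log2(CPM + 1), RGLS4326 minus PBS was 0.77 for *Fga*, 0.44 for *Fgb* and 0.42 for *Fgg* in set 1 and 0.28, 0.31 and 0.17 in set 3, but −0.76, −0.40 and −0.54 in set 2, which held 3 RGLS4326 and 4 PBS mice. Whether the sets differed from each other was not tested.

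**Figure D2:**
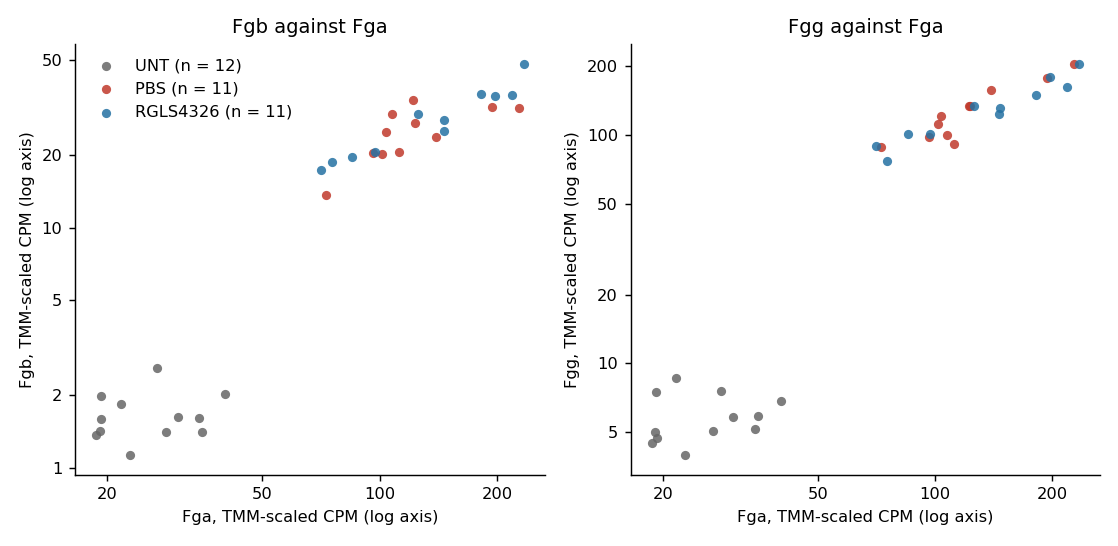
TMM-scaled CPM of *Fgb* (left) and *Fgg* (right) against that of *Fga* in each mouse, on log axes, with UNT in grey, PBS in red and RGLS4326 in blue. In RGLS4326 kidneys the chains rise together (r = 0.962 for both pairs), while the UNT mice form a separate cloud at low *Fgb* and *Fgg*.

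Within groups, the chains followed each other from mouse to mouse in the *Pkd2*-KO kidneys. Over the 11 RGLS4326 mice, Pearson's r of log2(CPM + 1) was 0.962 for *Fga* and *Fgb*, 0.962 for *Fga* and *Fgg* and 0.96 for *Fgb* and *Fgg*, each with an adjusted p of 0.00027 (two-sided permutation tests with 100000 resamples, whose smallest possible p is 1e-05, adjusted over 27 relations). Spearman's rho was 0.936, 0.945 and 0.936 (adjusted p = 0.00108 each), and r without the 2 mice farthest from the median was 0.941, 0.948 and 0.94. Over the 11 PBS mice r was 0.921 for *Fga* and *Fgg* (adjusted p = 0.00027, rho = 0.873 with adjusted p = 0.00621, r = 0.791 without the 2 outer mice, permutation tests). It was 0.743 for *Fga* and *Fgb* (adjusted p = 0.0404, rho = 0.745 with adjusted p = 0.0419). The latter was not past the threshold without the 2 outer mice (r = 0.756, adjusted p = 0.107) or after set means were subtracted (r = 0.668, adjusted p = 0.112, permutation tests). *Fgb* and *Fgg* had r = 0.69 in PBS mice (adjusted p = 0.0715, rho = 0.736 with adjusted p = 0.0419, r = 0.684 without the 2 outer mice, permutation tests). Over the 12 UNT mice, where *Fgb* had only 25 to 97 counts per library, r was 0.177 for *Fga* and *Fgb*, 0.204 for *Fga* and *Fgg* and 0.382 for *Fgb* and *Fgg*. Spearman's rho was 0.231, 0.371 and 0.483, none past the threshold (smallest adjusted p = 0.285, permutation test). After the mean of each set of library numbers was subtracted, r was 0.951 to 0.98 in RGLS4326 and 0.563 to 0.88 in PBS mice. The 3 values of a mouse come from 1 library, and the difference in r between groups was not tested.

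Markers of other sources of fibrinogen transcript were read in the same libraries. The summed level of 10 hepatocyte markers was from 112 to 226 CPM in UNT, from 47.8 to 179 CPM in PBS and from 72.1 to 168 CPM in RGLS4326 kidneys. Of the 8 that passed the filter 5 were lower and 2 higher in PBS than in UNT kidneys (39.0% and 43.1% of all tested genes). Albumin (*Alb*), the defining hepatocyte transcript, had from 4.23 to 25.96 CPM in UNT and from 0.169 to 5.67 CPM in PBS kidneys, while *Serpina1b* had medians of 1.116 and 8.54 CPM and *Ahsg* of 0 and 0.503 CPM. *Tat* was at 0 in at least 1 library of each group. The summed level of 7 platelet markers was from 7.26 to 11.9 CPM in UNT, from 13.7 to 30.5 CPM in PBS and from 11.7 to 16.5 CPM in RGLS4326 kidneys. Only 4 of them passed the filter, of which 3 were higher and 1 lower in PBS than in UNT kidneys and 3 were lower in RGLS4326 than in PBS kidneys (18.5% of all tested genes). *Pf4* had medians of 1.07 CPM in UNT and 12.2 CPM in PBS, and *Itga2b* of 8.27 and 3.74 CPM. *Gp9* and *Gp6* were at 0 in at least 1 library of each group. Of 13 genes of the acute phase response and interleukin-6 signalling, 12 were tested and 11 were higher and none lower in PBS than in UNT kidneys (43.1% and 39.0% of all tested genes). In RGLS4326 against PBS kidneys 3 were lower and 1 was higher, a share close to the 33.8% of all tested genes that were called. The part of these sources and signals in the fibrinogen levels was not tested.

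The 2 plasminogen activators differed little between groups, and their ranges overlapped in every comparison. *Plau* (chr14:20836660-20843385, plus strand) had the highest median level per kilobase of the 9 genes in each group. Its range was from 365 to 733 CPM (median 506) in UNT, from 479.8 to 925 CPM (median 603) in PBS and from 396 to 796 CPM (median 618) in RGLS4326 kidneys. *Plat* (chr8:22757727-22782844, plus strand) had from 115 to 172 CPM (median 144) in UNT, from 95.6 to 165 CPM (median 123) in PBS and from 99.2 to 172 CPM (median 136.5) in RGLS4326 kidneys. For PBS vs UNT the log2 fold change was 0.29 (SE 0.12) for *Plau* and −0.24 (SE 0.09) for *Plat*. Neither sign held throughout, with −0.086 for *Plau* once the percentage of reads outside genes entered the fit and 0.034 for *Plat* in set 2 alone. For RGLS4326 vs UNT neither was called (0.24 for *Plau*, adjusted p = 0.0609, and −0.03 for *Plat*, adjusted p = 0.772). *Plau* was called without RGLS4326 mouse 7 or 11 or UNT mouse 7 or 8 (smallest adjusted p = 0.0178) and in set 1 of the library numbers alone (0.41, adjusted p = 0.0451). For RGLS4326 vs PBS neither was called, with −0.05 for *Plau* (95% confidence interval −0.29 to 0.20, adjusted p = 0.782) and 0.21 for *Plat* (0.03 to 0.40, adjusted p = 0.0668). For *Plat*, 10 of 11 RGLS4326 mice lay above the PBS mean, and the call was gained (adjusted p = 0.0213 at the smallest) when any one of PBS replicate 1, PBS replicate 7 or RGLS4326 replicate 6 was left out.

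The urokinase receptor, in contrast to urokinase, was 4-fold higher in PBS than in UNT kidneys and fell with treatment. *Plaur* (chr7:24462484-24475968, plus strand) had from 4.90 to 8.96 CPM (median 6.79) in UNT, from 20.9 to 38.4 CPM (median 26.4) in PBS and from 15.5 to 24.7 CPM (median 18.0) in RGLS4326 kidneys. Of the RGLS4326 mice, 7 lay below the lowest PBS mouse and all 11 lay below the PBS mean, yet all 11 stayed above the highest UNT mouse. The log2 fold change was 2.04 (SE 0.11) for PBS vs UNT, which is 4.10-fold. It was −0.53 for RGLS4326 vs PBS (95% confidence interval −0.75 to −0.31, adjusted p = 0.00192) and 1.51 (SE 0.11, adjusted p = 6.76e-15) for RGLS4326 vs UNT. The difference between RGLS4326 and PBS had the same sign in each set of library numbers (−0.62, −0.46 and −0.47 in mean log2(CPM + 1)), but it was −0.39 and not called (adjusted p = 0.0744) once the percentage of reads outside genes entered the fit. Over 34 mice, with group means subtracted, the 3 genes outside the 9 with the most similar pattern to *Plaur* were *Rela* (r = 0.827), which encodes a subunit of NF-kB, *Il17rc* (r = 0.824), which encodes a chain of the interleukin-17 receptor, and *Pdlim7* (r = 0.816).

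Urokinase receptor is made by myeloid cells among others, and markers of macrophages were higher in PBS and lower with treatment, as *Plaur* was. The summed level of 7 macrophage markers was from 90.8 to 171 CPM in UNT, from 629 to 1767 CPM in PBS and from 534 to 1132 CPM in RGLS4326 kidneys. All 7 were higher in PBS than in UNT kidneys (43.1% of all tested genes), while 5 of 7 were lower (18.5% of all tested genes) and none higher in RGLS4326 than in PBS kidneys. The summed level of 5 neutrophil markers was from 1.63 to 7.59 CPM in UNT, from 7.88 to 40.6 CPM in PBS and from 10.8 to 21.2 CPM in RGLS4326 kidneys. All 4 that were tested were higher in PBS than in UNT kidneys, and edgeR called 0 of 4 in either direction between RGLS4326 and PBS (2 had an unadjusted p under 0.05). *Mpo* had at most 4 counts in any library. The 7 markers of principal cells of the collecting duct were all higher in PBS than in UNT kidneys and 5 were lower in RGLS4326 than in PBS kidneys, against the same shares of all tested genes. Their part in the *Plaur* levels was not tested.

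*F3* and *Plaur*, the tissue factor and urokinase receptor genes, varied together among PBS mice. Over these 11 mice r was 0.827 (adjusted p = 0.015, permutation test), rho was 0.827 (adjusted p = 0.016), r was 0.829 without the 2 outer mice (adjusted p = 0.0402) and 0.78 after set means were subtracted. The same pair gave r = 0.361 (adjusted p = 0.494, rho = 0.382, permutation test) over the RGLS4326 mice and r = 0.0526 (adjusted p = 0.892, rho = 0.105, permutation test) over the UNT mice. Without the 2 outer mice these values were −0.219 and −0.147. *F3* and *Kng2* had r = −0.57 in PBS mice (adjusted p = 0.218) but rho = −0.745 (adjusted p = 0.0419, permutation tests). The other 14 relations tested (*F3* with *Plau* and *Thbd*, *Plau* with *Plaur*, *Plat* with *Thbd*, and *F3* with *Kng2* in the other groups) had r from −0.417 to 0.548 and none passed the threshold (smallest adjusted p = 0.238, permutation test). Of all 27 relations, 6 passed by r and 8 by rho. The genes outside the 9 with the most similar pattern to *F3* over 34 mice, with group means subtracted, were *Anxa3* (r = 0.638), *Slc35g2* (r = 0.624) and *D19Bwg1357e* (r = 0.617). Those for *Fgb* were *Spp1* (r = 0.745), which encodes osteopontin, *Tgm1* (r = 0.693) and *Lgmn* (r = 0.664). Such genes, here and for *Plaur* and *Kng2*, are the top of a ranking over all tested genes outside the 9. Their r values were not tested.

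Kininogen was lower in cystic kidneys and slightly higher with treatment. *Kng2* (chr16:22985854-23029482, minus strand) had from 400.1 to 533 CPM (median 482) in UNT, from 131 to 207 CPM (median 156) in PBS and from 166 to 231 CPM (median 175) in RGLS4326 kidneys. Every *Pkd2*-KO mouse lay below every UNT mouse, and 9 of 11 PBS mice lay below the lowest RGLS4326 mouse. The log2 fold change was −1.60 (SE 0.07) for PBS vs UNT, a 3.03-fold lower level. It was 0.21 for RGLS4326 vs PBS (95% confidence interval 0.08 to 0.35, adjusted p = 0.018) and −1.39 (SE 0.07, adjusted p = 1.6e-19) for RGLS4326 vs UNT. The PBS mice whose low levels helped to choose *Kng2* also enter RGLS4326 vs PBS. This favours a positive difference there, so that p-value is not independent of the choice. All 11 RGLS4326 mice lay above the PBS mean, and the difference was 0.33, 0.22 and 0.16 in the 3 sets (mean log2(CPM + 1)), while it was 0.18 and not called (adjusted p = 0.161) once the percentage of reads outside genes entered the fit. The genes outside the 9 with the most similar pattern over 34 mice were *Wfdc15b* (r = 0.783), *Ppp1r1a* (r = 0.767) and *Klk1* (r = 0.763), the tissue kallikrein that releases kinin from kininogen. *Kng1* (chr16:23057865-23082078, plus strand), the neighbouring paralog, had from 0.902 to 1.81 CPM in UNT, from 1.45 to 4.25 CPM in PBS and from 2.33 to 3.94 CPM in RGLS4326 kidneys. Unlike *Kng2* it was higher in PBS kidneys, by 1.06 on the log2 scale over UNT (SE 0.14, adjusted p = 3.09e-08), and for RGLS4326 vs PBS it had a log2 fold change of 0.14 that was not called (adjusted p = 0.444). The 2 genes share sequence and only uniquely mapped reads were counted, so the levels of both are uncertain by the reads they share.

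Markers of the proximal tubule and of the distal convoluted and connecting tubule were lower in PBS than in UNT kidneys, as *Kng2* was. The summed level of 6 proximal tubule markers was from 8592 to 12310.0 CPM in UNT, from 724.5 to 2606 CPM in PBS and from 1752 to 2925 CPM in RGLS4326 kidneys, and that of 5 markers of the distal convoluted and connecting tubule was from 2348 to 3095 CPM, from 358 to 641 CPM and from 519.7 to 961 CPM. Podocyte, thick ascending limb and erythroid lists were likewise lower in sum in PBS than in UNT kidneys (medians of 658 and 437, 6931 and 3621, and 18.5 and 5.61 CPM), while fibroblast and tubular injury lists were higher (638.5 and 3674, and 32.1 and 1334 CPM). Principal cell markers of the collecting duct went the opposite way from *Kng2*, as given above with *Plaur*, and within the lists that were lower in sum *Cldn16* (thick ascending limb) had medians of 14.9 CPM in UNT and 23.15 CPM in PBS, and *Synpo* (podocytes) 90.4 and 159 CPM. Between RGLS4326 and PBS, where *Kng2* was higher, 5 of 6 proximal tubule, 4 of 5 podocyte and 2 of 5 distal markers were higher (15.3% of all tested genes) and none of these lists had one lower, while of 4 thick ascending limb markers 2 were higher and 1 lower. The part of these shifts in the *Kng2* level was not tested.

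**Figure D3:**
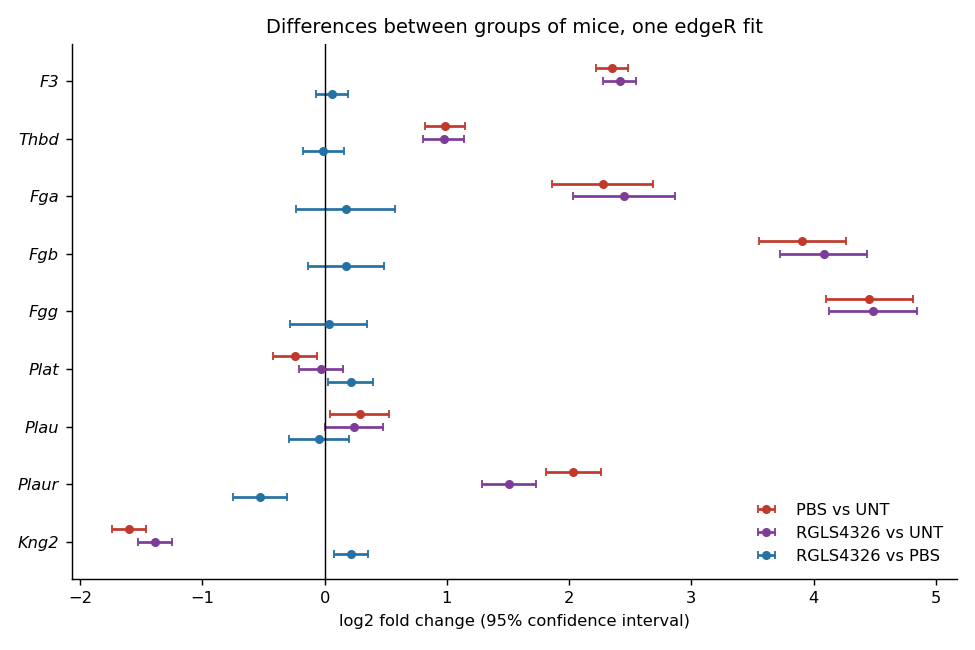
Log2 fold changes with 95% confidence intervals of the 9 genes in the 3 comparisons of 1 edgeR fit over 34 mice. The RGLS4326 vs UNT and PBS vs UNT values share the 12 UNT mice, and of the RGLS4326 vs PBS values (blue) only *Plaur* (−0.53) and *Kng2* (0.21) were called.

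Counted over the 9 genes, 2 were called between RGLS4326 and PBS, 1 lower (*Plaur*) and 1 higher (*Kng2*), which is 22.2% of the genes against 33.8% of all 15644 tested genes (15.3% higher and 18.5% lower). The share was no higher than that of genes in general. The median log2 fold change of the 9 was 0.06, against 0.00 over all tested genes. For none of the 9 did the PBS and RGLS4326 mice separate without overlap, which among all genes happened in 0.0447% with RGLS4326 above and 0.0192% with RGLS4326 below. Between RGLS4326 and UNT, which share the UNT mice with the comparison that chose the genes, 7 of 9 were called (77.8%, against 77.7% of all tested genes). Of these, 6 lay above with no overlap (20.7% of all genes) and 1 below with no overlap (16.1%). Between PBS and UNT, where 82.1% of all tested genes were called (43.1% higher and 39.0% lower), 6 of the 9 lay above and 1 below with no overlap, against 22.7% and 19.8% of all genes. The genes were picked with this comparison known, so nothing is read from those counts.

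**Figure D4:**
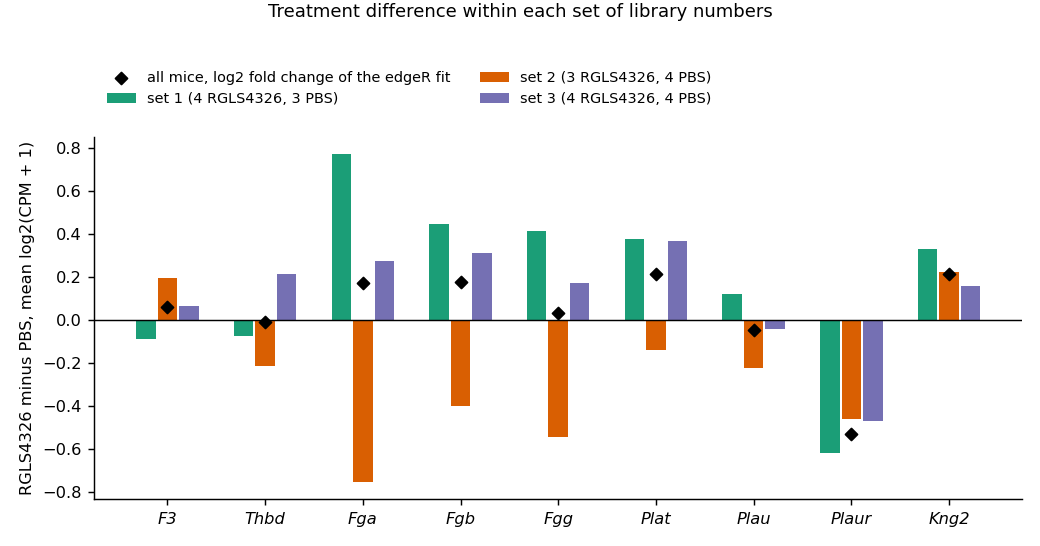
RGLS4326 minus PBS in mean log2(CPM + 1) within each set of library numbers (bars), with the log2 fold change over all mice (diamonds). *Plaur* is negative and *Kng2* positive in all 3 sets, while the fibrinogen genes are positive in sets 1 and 3 and negative in set 2.

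Per kilobase of exon, the order of the 9 genes changed between UNT and PBS kidneys. In UNT kidneys the medians were 214 CPM per kilobase for *Plau*, 176 for *Kng2*, 23.1 for *Plat*, 11.8 for *Thbd*, 9.26 for *F3*, 8.26 for *Fga*, 2.63 for *Fgg*, 2.59 for *Plaur* and 0.422 for *Fgb*. The ranges of *Plau* and *Kng2*, of *Thbd*, *F3* and *Fga*, and of *Fgg* and *Plaur* overlapped, so these neighbours were not separated. In PBS kidneys the order was *Plau* (255), *Fgg* (58.1), *Kng2* (57.01), *F3* (48.9), *Fga* (37.2), *Thbd* (24.4), *Plat* (19.8), *Plaur* (10.1) and *Fgb* (6.56 CPM per kilobase). There *Plau* stood apart from the rest, *Fgg*, *Kng2*, *F3* and *Fga* overlapped each other, as did *Fga*, *Thbd* and *Plat*, and *Plaur* and *Fgb*. *Fgg* overlapped with *Plaur* in UNT kidneys and with *Kng2* in PBS kidneys. Lengths are the union of annotated exons, and those used in kidney were not measured.

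The other genes of coagulation, fibrinolysis and kinins were taken from a list of 46, of which 36 passed the filter. Prothrombin (*F2*), *F9*, *F11*, *F12*, plasminogen (*Plg*), *Adamts13*, *Serpina5*, *Serpinb2*, *F2rl2* and *Bdkrb1* did not pass, with at most 29 counts in any library. Prothrombin and plasminogen, the zymogens of thrombin and plasmin, were thus near the limit of detection, while *F3*, *Plau*, *Fga* and *Fgg* were not. *Fgb* had only 25 to 97 counts per library in UNT kidneys, but 562 to 1330 in PBS and 467 to 1342 in RGLS4326 kidneys. Between PBS and UNT 32 of 36 were called (88.9%, against 82.1% of all tested genes), 16 higher and 16 lower, with 13 above and 11 below without overlap (22.7% and 19.8% of all tested genes). Those not called were *F8*, *F2rl3*, *Vkorc1* and *Vkorc1l1*, named after their values were seen.

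The 5 genes of the list with the highest log2 fold changes in PBS over UNT kidneys included 3 protease inhibitors, while other inhibitors of the list were lower. Those lower, named after their values were seen, were *Serpinf2* (−2.81), *Serpinc1* (−1.39), *Serpini1* (−1.29), *Tfpi2* (−1.21) and *Tfpi* (−0.24). *Serpina10*, the inhibitor that acts on factor Xa with protein Z, had from 0.838 to 7.66 CPM in UNT and from 79.7 to 130.1 CPM in PBS kidneys (log2 fold change 5.50, SE 0.27, adjusted p = 7.91e-20). *F13a1*, the fibrin-crosslinking subunit of factor XIII, rose by 4.63 (SE 0.27, adjusted p = 2.15e-17). *Serpind1* (heparin cofactor II) rose by 2.97 (SE 0.21, adjusted p = 2.74e-15) and *Anxa2*, a surface partner of plasminogen and of its tissue activator, by 2.39 (SE 0.11, adjusted p = 7.07e-21). *Serpine2* (protease nexin-1, an inhibitor of thrombin and urokinase) rose by 2.01 (SE 0.09, adjusted p = 6.83e-21), from a range of 29.6 to 42.8 CPM to one of 108 to 174 CPM, in the same kidneys in which the activators *Plau* and *Plat* overlapped with UNT.

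The genes with the lowest log2 fold changes were *F13b*, the carrier subunit of factor XIII, at −3.17 (SE 0.26, adjusted p = 1.49e-13), and *Serpinf2*, which encodes the plasmin inhibitor alpha2-antiplasmin, at −2.81 (SE 0.36, adjusted p = 7.75e-09). They were followed by *Proz* (protein Z) at −2.69 (SE 0.23, adjusted p = 4.63e-13), *Klk1* at −2.46 (SE 0.11, adjusted p = 1.37e-20) and *Klkb1* (plasma prekallikrein) at −2.06 (SE 0.16, adjusted p = 6.42e-14). *F13b* had from 144 to 273 CPM in UNT and from 6.30 to 40.5 CPM in PBS kidneys, so the 2 subunits of factor XIII moved in opposite directions. Of the kinin list, *Klk1* and 2 others of 4 tested genes were lower and 1 was higher (39.0% and 43.1% of all tested genes). All 10 genes with the highest and lowest values stayed called with the same sign under the 11 alternatives to the fit, but over the 3 sets of library numbers fitted alone *Serpinf2* was from −4.24 to −1.89, *F13a1* from 3.62 to 5.72, *Serpina10* from 4.90 to 6.17 and *Klkb1* from −2.75 to −1.80. Exons of *F13a1*, *Anxa2* and *Klkb1* overlap those of other genes, which leaves their counts uncertain.

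Between RGLS4326 and PBS 14 of the 36 genes were called (38.9%, against 33.8% of all tested genes), 7 higher and 7 lower, with a median log2 fold change of 0.06 over the list. With the percentage of reads outside genes as a covariate only 3 were called, *F8* (adjusted p = 0.00559) and *Serpini1* (adjusted p = 0.0394) among them, while *F10* (−0.86), *F7* (−0.80), *Tfpi2* (0.44), *F13b* (0.97), *F13a1* (−0.72), *Proz* (0.72) and *Anxa2* (−0.32) kept the sign of their log2 fold changes with adjusted p-values from 0.0642 to 0.192. Partners of tissue factor were among them: *F10* (factor X) fell by 1.03 on the log2 scale (SE 0.27, adjusted p = 0.00648) and *F7* (factor VII) fell by 0.82 (SE 0.31, adjusted p = 0.0376), though *F7* had at most 51 counts in any library and was not called without any one of 7 libraries (largest adjusted p = 0.107). The inhibitor *Tfpi2* rose by 0.60 (SE 0.13, adjusted p = 0.00311). All 4 genes of the tissue factor list were called, 2 in each direction. *F13b* rose by 1.04 (SE 0.25, adjusted p = 0.00426) and *F13a1* fell by 0.85 (SE 0.24, adjusted p = 0.00964). *Proz* rose by 0.84 (SE 0.24, adjusted p = 0.00974) and *F8* (factor VIII) by 0.65 (SE 0.10, adjusted p = 0.000142).

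Of the fibrinolysis genes, *Anxa2* fell by 0.52 (SE 0.10, adjusted p = 0.00171). *Serpini1* (neuroserpin, an inhibitor of the tissue activator) rose by 0.71 (SE 0.13, adjusted p = 0.00119). The other 5 called genes, named after their values were seen, were *Tfpi*, *F2r*, *F2rl1*, *S100a10* and *Vkorc1*, with log2 fold changes between −0.34 and 0.49. Of the tested kinin genes edgeR called 0 of 4 (0 at an unadjusted p under 0.05) and of the anticoagulant genes 1 of 7, against 33.8% of all tested genes. The genes of this list that had fallen most in PBS kidneys and were called after treatment, *F13b* and *Proz*, remained below every UNT value in the RGLS4326 kidneys.

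**Figure D5:**
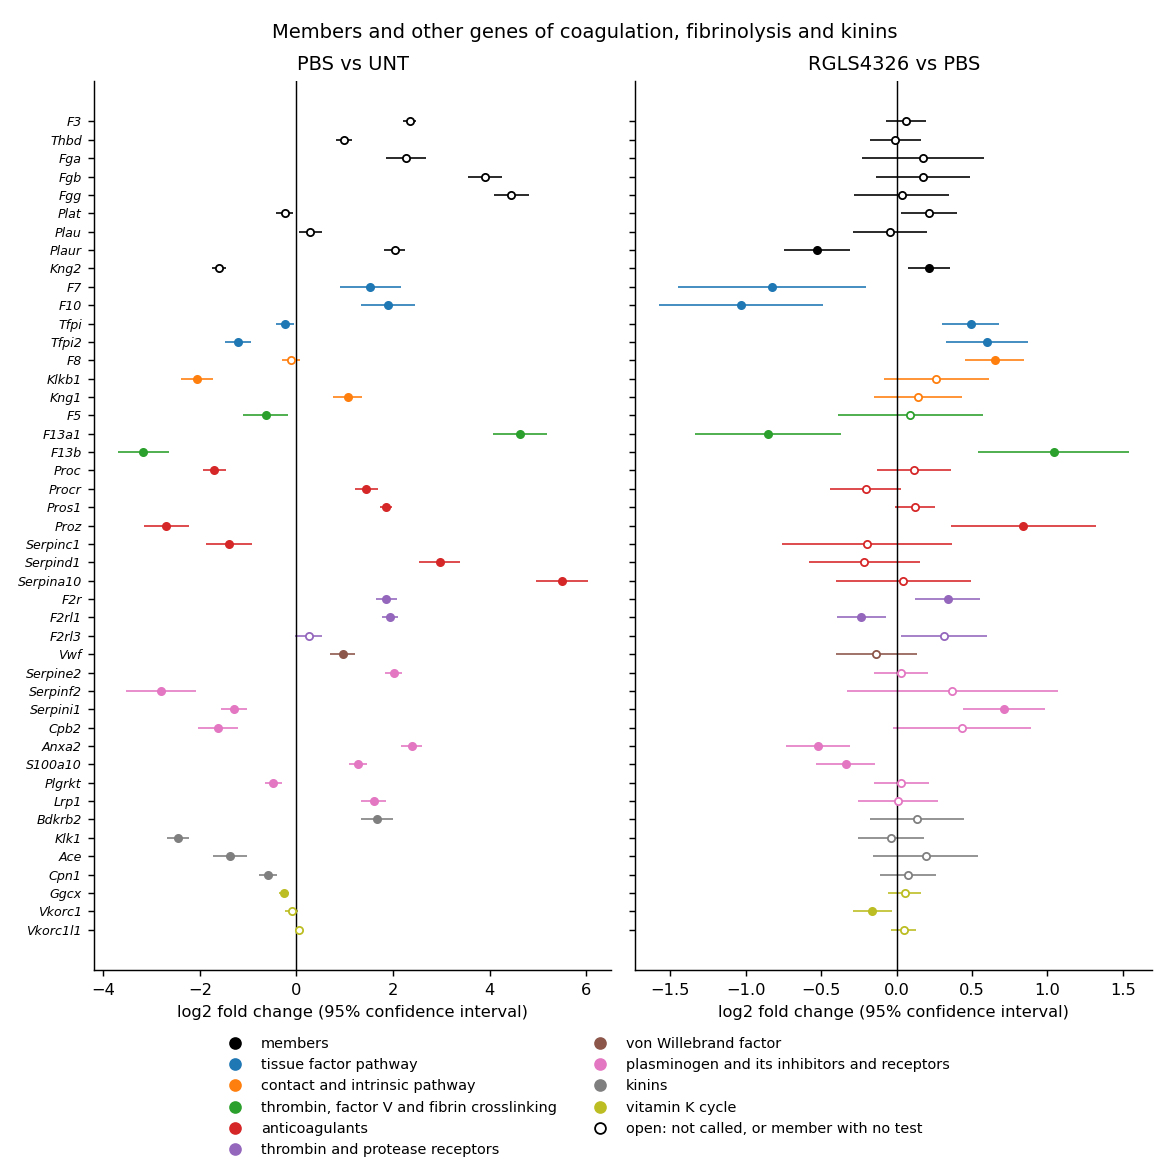
Log2 fold changes with 95% confidence intervals of the 9 genes (black) and of 36 other genes of coagulation, fibrinolysis and kinins, coloured by list, for PBS vs UNT (left) and RGLS4326 vs PBS (right), each panel with a scale of its own. Filled points were called by edgeR (32 and 14 of the 36), and the 9 genes have no test in the left panel.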

How the data were processed

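Kidney RNA of 34 mice was isolated with RNeasy kits, made into stranded mRNA libraries (TruSeq) and sequenced as paired ends of 75 bases, per the labels and the study's methods. The authors trimmed reads with Trim Galore, mapped them with STAR to GRCm38 (mm10) and counted reads with HTSeq (0.6.1). The submitters' processing notes also name FastQC 0.11.2, SAMtools 1.1 and Picard 1.119. Each mouse has its own deposited table of whole-number counts by gene symbol, not normalized. The annotation and strand setting are not given in the sources used here. The counter's totals (no gene, ambiguous, not unique) stayed out of library sizes and tests, and genes with exons shared with a neighbour, on either strand, were treated as uncertain.

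Samples were grouped by their labels (UNT 12, PBS 11, RGLS4326 11). Counts were filtered with filterByExpr, scaled by TMM and tested with edgeR's quasi-likelihood test (edgeR 4.0.16, R 4.3.3) in 1 fit of 3 groups with no covariate, as the study's own use of edgeR names none. P-values were adjusted by Benjamini-Hochberg over all 15644 tested genes and called at an adjusted p under 0.05. CPM in the text are TMM-scaled, and log2(CPM + 1) uses a pseudocount of 1. Correlations were computed within groups by Pearson and Spearman with two-sided permutation tests (100000 resamples, scipy 1.17.1). No 2 libraries were identical (0 identical pairs). Tested on simulated counts for RGLS4326 vs PBS over 15576 genes, the procedure recovered 96 of 100 genes changed by a log2 fold change of 1 and 64 of 98 changed by 0.5, with 17 false calls among 177.

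The 9 genes, the pathway and marker lists and the motifs were chosen with earlier results of these data known. Pathway genes were named when called with an absolute log2 fold change above 0.5 in RGLS4326 vs PBS, or among the 5 highest or 5 lowest called in PBS vs UNT, and *Kng1* always. A gene of the lists is not reported here and was left out of the list counts. Alternatives were DESeq2 size factors, upper quartile scaling, the DESeq2 Wald test (1.42.0), no filter, the replicate number as a block, the set of library numbers as a covariate or each set alone, the percentage of reads outside genes as a covariate, only the 2 groups compared, and leaving out each library. Outlying single mice were not tested, since groups held over 10 mice. Promoter sequences were read from RefSeq windows and 3′UTRs from GENCODE transcripts. Protein and whole-genome sequences were not used here.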

Additional observations from a re-analysis of the deposited data

How the results depend on the processing

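Of 2424 values recomputed under alternatives, 2312 were counted as the same, 48 as weaker, 8 as stronger, 16 as moved and 40 as reversed. Most fits left out 1 library, and leaving out a mouse of neither compared group hardly moves a value. The total is therefore no measure of how firm a result is. Leaving out any 1 library kept *Plaur* (−0.57 to −0.47) and *Kng2* (0.18 to 0.26) called between RGLS4326 and PBS, and the 9 genes gave 2 to 3 calls. Changes of sign or call came for *Thbd* between −0.045 and 0.027, *Fgg* between −0.048 and 0.12, *Plau* between −0.084 and 0.015, and *Plat* between 0.18 and 0.26 (called without 3 of the libraries in turn) for RGLS4326 vs PBS, and *Plat* between −0.058 and 0.015 for RGLS4326 vs UNT. *Plau* between RGLS4326 and UNT was from 0.20 to 0.30 and was called without RGLS4326 mouse 7 or 11 or UNT mouse 7 or 8 (smallest adjusted p = 0.0178, edgeR). Of the pathway genes, *F7* was not called without RGLS4326 mouse 1, 5, 6 or 11 or PBS mouse 2, 3 or 9 (largest adjusted p = 0.107, edgeR, from −1.001 to −0.625).

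Sets of library numbers fitted alone gave fewer calls, from 3 or 4 mice a group. Set 1 called 0 of the 9 genes and 0 pathway genes between RGLS4326 and PBS, with 54 calls over all genes. There *F3* was −0.077, *Plau* 0.13, *Plaur* −0.65 (adjusted p = 0.0639, edgeR) and *Kng2* 0.34 (adjusted p = 0.0736). Set 2 called 1 of the 9 genes and 8 pathway genes, with *Fga* at −0.78, *Fgb* at −0.37, *Fgg* at −0.54, *Plat* at −0.11 and *Kng2* at 0.25 (adjusted p = 0.133). Set 3 called 0 and 0, and 0 over all genes (2826 at an unadjusted p under 0.05), with *Thbd* at 0.20, *Plaur* at −0.49 (adjusted p = 0.262) and *Kng2* at 0.14 (adjusted p = 0.561). In comparisons with UNT, *Plat* was 0.10 in set 1 and *Plau* 0.41 and called in set 1 (adjusted p = 0.0451, edgeR) and −0.027 in set 2 for RGLS4326, and *Plat* was 0.034 in set 2 for PBS.

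With the percentage of reads outside genes as a covariate, 0 of the 9 genes and 3 pathway genes were called between RGLS4326 and PBS (145 over all genes): *Plaur* was −0.39 (adjusted p = 0.0744), *Kng2* 0.18 (adjusted p = 0.161), *Thbd* 0.0070 and *Plau* 0.097, and for PBS vs UNT *Plau* was −0.086. Without the filter *Thbd* was 0.0044. The cause was not tested. The other scalings, DESeq2, the set covariate and the fit of 2 groups changed no call of *Plaur* or *Kng2*.

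Correlations past the threshold numbered 5 to 6 under 3 alternatives. Without the 2 outer mice r changed sign for *F3* with *Plau* (−0.165) and *Plaur* (−0.219) in RGLS4326, *F3* with *Plaur* in UNT (−0.147), *F3* with *Thbd* in PBS (0.17) and *Plat* with *Thbd* in UNT (0.0802) and RGLS4326 (−0.0209). *F3* with *Kng2* in RGLS4326 became −0.0335 there, −0.0366 on DESeq2 size factors and −0.0524 with set means subtracted, where *Plat* with *Thbd* in UNT became 0.211.

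Replicate numbers appear to be names only. Deviations of same-numbered PBS and RGLS4326 mice correlated from −0.244 to 0.454 over 11 pairs, 5 of them above 0.1, and 1 of 11 RGLS4326 mice correlated best with its own number. With the number as a replicate block, *Plaur* was −0.52 (adjusted p = 0.00412) and *Kng2* 0.22 (adjusted p = 0.0153), and 5098 genes were called in place of 5280.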
